A study of Mus musculus with 2 samples.

Results

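The genes described here are the 4 R-spondins (Rspo1 to Rspo4), their 3 receptors (Lgr4, Lgr5 and Lgr6) and the 2 ligases that the complex acts on (Znrf3 and Rnf43). They were taken by name, all 9 were found, and they stand among 21474 protein-coding genes. R-spondins are secreted proteins that strengthen Wnt signalling. ZNRF3 and RNF43 sit in the cell membrane, attach ubiquitin to Frizzled receptors and so remove them from the surface. An R-spondin that binds an LGR receptor and a ligase at once takes the ligase away, and Frizzled and LRP receptors stay. In the adult gut LGR5 marks the dividing stem cells at the crypt base, and R-spondins come mostly from cells beneath the epithelium.

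Whole intestine was taken from healthy B6NCrl mouse embryos of 16.5 days, with male and female embryos pooled, and 10 ng of total RNA over 200 nt in size went into each library. There is a single group of 2 libraries, named replicate 1 and replicate 2, each from its own pool. The pool of replicate 2 held 41 embryos. Both pools carry the same donor identifier, and with no treated, mutant or control group the comparisons are between genes and between the pools. Spread is therefore that of 2 pools. Depth was alike, at 42040766 and 41480301 expected counts, with 1.81% and 1.74% of them on artificial spike-in RNA. The number of embryos behind replicate 1 is not used here. In a bulk sample of this kind, fewer cells of a type and less RNA per cell cannot be told apart.

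The labelled tissue was checked against markers. Every gene of the epithelial (8), mesenchymal (8), smooth muscle (6), endothelial (7), mesothelial (5), enteric nervous (6) and pancreatic (7) lists reached 1 TPM in both libraries. TPM is a transcript abundance corrected for length. Levels summed over each list were 4485 and 4456 TPM for epithelium, 2508 and 2698 for mesenchyme, 3676 and 3550 for smooth muscle, 113 and 118 for endothelium, 102 and 111 for mesothelium, 112 and 98.3 for nerves and 4881 and 6392 for pancreas. The pancreatic list, which does not mark intestine, summed above the epithelial list in both libraries, and all 7 of its genes were higher in replicate 2. Adrenal and gonad markers summed to 48.4 TPM in replicate 1 and 6.99 in replicate 2, and 1 of 8 reached 1 TPM in both. Levels, shares and ranks below are therefore those of the whole sample, and the tissue behind each was not tested.

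The data on these genes turn in part on 2 differences between transcripts, whose sequences are given first (GENCODE M21, mm10, plus strand, 5′ to 3′). Lgr4-201 carries an exon of 72 bases that Lgr4-202 lacks, exon 2 at chromosome 2, 109970692 to 109970763. The exon is shown in capitals between the 15 bases on either side of it, and then the join without it.
Lgr4-201: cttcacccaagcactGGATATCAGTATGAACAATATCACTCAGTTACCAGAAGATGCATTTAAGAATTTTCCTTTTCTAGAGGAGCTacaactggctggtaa
Lgr4-202: cttcacccaagcactacaactggctggtaa
The exon lies wholly in coding sequence and spans 24 codons without a stop, so both forms keep the reading frame, with 951 codons in Lgr4-201 and 927 in Lgr4-202.

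Rnf43 has coding transcripts from upstream starts and from a downstream start. The upstream starts are those of Rnf43-209 (87663087), Rnf43-202 (87664274) and Rnf43-203 (87664549). The 250 bases before the start of Rnf43-209 and before the downstream start are shown, from RefSeq's promoter windows on GRCm38.p6. Every CG pair is in capitals because the upstream stretch held 8 of them and the downstream one 2, beside a median of 6 over 32851 windows of the same length. The upstream stretch is chr11:87662837-87663086, before Rnf43-209, and all of it is exon of the noncoding transcript Rnf43-206. The downstream stretch is chr11:87699647-87699896, before Rnf43-201, and lies in an intron of the longer transcripts.
Upstream: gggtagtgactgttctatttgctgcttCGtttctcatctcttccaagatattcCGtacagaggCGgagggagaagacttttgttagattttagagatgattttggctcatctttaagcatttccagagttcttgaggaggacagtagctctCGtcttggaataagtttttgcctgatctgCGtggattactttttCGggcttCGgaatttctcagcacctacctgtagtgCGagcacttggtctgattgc
Downstream: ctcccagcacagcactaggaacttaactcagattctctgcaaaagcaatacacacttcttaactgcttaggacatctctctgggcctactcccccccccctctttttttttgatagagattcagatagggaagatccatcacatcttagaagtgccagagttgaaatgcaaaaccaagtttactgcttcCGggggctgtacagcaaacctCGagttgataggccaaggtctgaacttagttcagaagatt
Reads were assigned here to coding transcripts of the upstream starts and of the downstream start, as described with the ligases.

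All 3 roles were present, at sums of the same order. R-spondins summed to 18.3 ± 0.636 TPM (SD, n = 2), LGR receptors to 20.5 ± 0.693 and the ligases to 16.1 ± 0.431. A gene was called detected at 1 TPM or more in both libraries, and 7 of the 9 genes were, against 62.0% of all protein-coding genes. Rspo4 and Lgr6 were not. The median of the 9 genes was 5.98 TPM, and that of all protein-coding genes was 4.47.

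**Figure D1:**
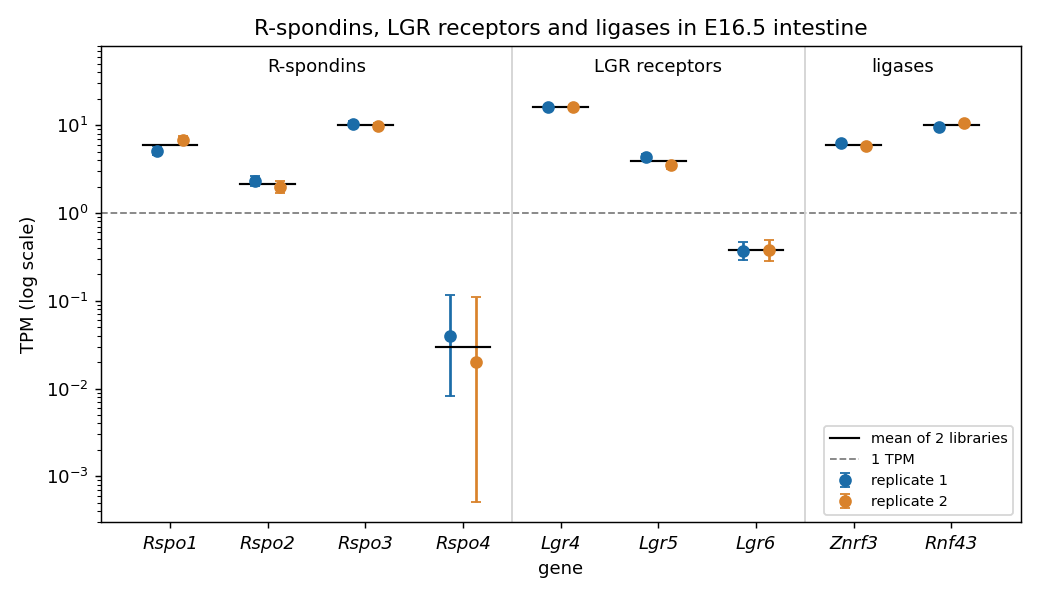
TPM of each gene in replicate 1 and replicate 2 on a log axis, with 95% exact Poisson intervals of the count scaled to TPM (counting error only) and the mean as a bar. Lgr4 stands highest at 16.2 TPM, Rspo4 lowest at 0.030 TPM, and only Rspo4 and Lgr6 lie below the dashed line at 1 TPM.

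Among the ligands, Rspo3 led (ENSMUSG00000019880.9; chromosome 10, 29452416 to 29535867, minus strand). It read 10.29 TPM in replicate 1 and 9.91 in replicate 2, from 695 and 650 counts, and ranked 8419th of the protein-coding genes. It held 55.3% ± 3.40 of R-spondin TPM. RSPO3 is the R-spondin best known from gut stroma and vessels, and it differed least between pools among the 3 detected ligands, by 1.03-fold. Over the same libraries the summed adrenal and gonad markers went from 48.4 to 6.99 TPM, and the summed pancreatic markers from 4881 to 6392. Any relation of Rspo3, or of the other genes described here, to either list was not tested.

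Rspo1 (ENSMUSG00000028871.7; chromosome 4, 124986430 to 125009099, plus strand), the ligand also known for ovary development, read 5.15 and 6.81 TPM from 254 and 302 counts. It held 32.6% ± 5.29 of R-spondin TPM and was the least steady of the 3 detected ligands. Rspo2 (ENSMUSG00000051920.6; chromosome 15, 43020794 to 43170826, minus strand), known for limb and lung development, read 2.34 and 1.98 TPM from 222 and 182 counts, or 11.9% ± 1.81 of the sum. It was detected in both libraries, but fell under the limit in replicate 2 when 2 TPM was asked for. Rspo4 (ENSMUSG00000032852.3; chromosome 2, 151842927 to 151874668, plus strand), which is needed for nails in humans, had 3 counts and 1 count. Exact Poisson intervals of these counts were 0.619 to 8.77 and 0.0253 to 5.57, so any expression lay near the limit of this depth.

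Rspo3 stood 4.69-fold above Rspo2, a log2 ratio of 2.14 in replicate 1 and 2.32 in replicate 2 (2.23 ± 0.13). A ratio counts as apart here if its sign is shared by the libraries and its mean is over 3 SD from 0, and this one was. Rspo3 over Rspo1 was positive in both libraries, at 1.00 and 0.54, but its mean of 0.77 ± 0.32 did not reach 3 SD. With protein-coding transcripts alone it was 0.90 ± 0.22 and was apart, a restriction that could lower only Rspo1 of this pair.

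The transcripts of Rspo1 divided unevenly between the libraries. The full-length Rspo1-201 held 251.79 and 293.13 counts, and the short noncoding Rspo1-202, of 446 bases, held 2.21 and 8.87. At that length these few reads were worth 0.22 and 0.89 TPM. They made 40.6% of the TPM difference between pools, and the noncoding share of Rspo1 was 4.27% in replicate 1 and 13.1% in replicate 2. Rspo2, Rspo3 and Rspo4 had 1 annotated transcript each in the tables. That of Rspo3 was 2394 bases long and has 3085 in GENCODE M21, so its TPM rests on the shorter model. An annotated antisense gene, Gm48159, overlaps 404 exon bases of Rspo3, and its reads may not be separable from those of Rspo3 if strand was not used.

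Lgr4 was the dominant receptor (ENSMUSG00000050199.9; chromosome 2, 109917647 to 110014257, plus strand). LGR4 is the broadly expressed member of the family, found in epithelium and in other tissues. Lgr4 read 16.28 and 16.12 TPM from 2332 and 2234 counts and held 79.1% ± 2.13 of receptor TPM. It was the highest of the 9 genes, at rank 6818 of the protein-coding genes.

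Lgr5, the stem cell receptor (ENSMUSG00000020140.11; chromosome 10, 115450311 to 115587780, minus strand), read 4.32 and 3.49 TPM from 550 and 446 counts, or 19.0% ± 2.22 of receptor TPM. Lgr6 (ENSMUSG00000042793.9; chromosome 1, 134983301 to 135105276, minus strand), known from hair follicle and skin stem cells, read 0.37 and 0.38 TPM from 71 and 56 counts. These counts are well above zero, so Lgr6 RNA was present, but at 1.83% ± 0.0965 of receptor TPM.

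Lgr4 stood 4.17-fold above Lgr5 (log2 1.91 and 2.21, mean 2.06 ± 0.21), and Lgr5 stood 10.4-fold above Lgr6 (log2 3.55 and 3.20, mean 3.37 ± 0.24). Both pairs were apart in TPM, in posterior mean TPM, in counts without length and with protein-coding transcripts alone. The size of the second ratio moved with the unit, to log2 2.91 with posterior means, under which Lgr6 read 0.61 and 0.55 TPM. It was 1.83 ± 0.18, also apart, when 1 TPM was added to both genes.

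Most Lgr4 RNA was assigned to the form without exon 2, the shorter of the pair printed above. Lgr4-202 took 78.17% of the gene's TPM in replicate 1 and 75.99% in replicate 2, and Lgr4-201 took 21.05% and 22.77%. In counts they were 1830 and 1710.82 against 499.98 and 520.11. Of the 2 forms together, 77.9% ± 1.28 lacked the exon, a 3.52-fold ± 0.262 excess, and by posterior means Lgr4-202 held 76.31% and 73.55% of the gene. The 2 models differ only in those 72 bases, so the split rests on the reads that touch the exon or the joins beside it. GENCODE gives Lgr4-202 its weakest support level (5, on a scale where 1 is best) and Lgr4-201 level 2.

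Of the other receptors, Lgr5-201 was the major Lgr5 transcript at 85.22% and 91.09%. Retained-intron transcripts made up the whole noncoding share of Lgr5, 13.0% and 8.88%. Lgr6 was assigned wholly to Lgr6-201 in replicate 1, and in replicate 2 it was split into 63.45% Lgr6-201 and 36.55% of the shorter Lgr6-202, on 45.22 and 10.78 counts. Its near-equal TPM thus stands on 71 counts over a mean length of 6675 bases and on 56 counts over 5266.

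The ligases were apart in TPM and were not apart once noncoding transcripts were set aside. That restriction could lower only Rnf43, since Znrf3 has no annotated noncoding transcript. Znrf3 (ENSMUSG00000041961.10; chromosome 11, 5276324 to 5444847, minus strand) read 6.21 and 5.81 TPM from 1123 and 1021 counts. Rnf43 (ENSMUSG00000034177.11; chromosome 11, 87662722 to 87735539, plus strand) read 9.56 and 10.57 TPM from 1019 and 1064 counts. Both are feedback inhibitors of Wnt that are themselves raised by it, and RNF43 is best known from gut epithelium.

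Rnf43 stood 1.67-fold above Znrf3, and the log2 ratio of Znrf3 over Rnf43 was -0.62 and -0.86 (mean -0.74 ± 0.17), which was apart. In counts without length the mean was 0.04 ± 0.14, of the other sign and not apart. With protein-coding transcripts alone the genes read 6.22 and 5.81 TPM for Znrf3 and 5.89 and 6.20 for Rnf43, and the ratio was -0.0075 ± 0.12. In that last unit each ligase was the higher in 1 of the 2 libraries.

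**Figure D2:**
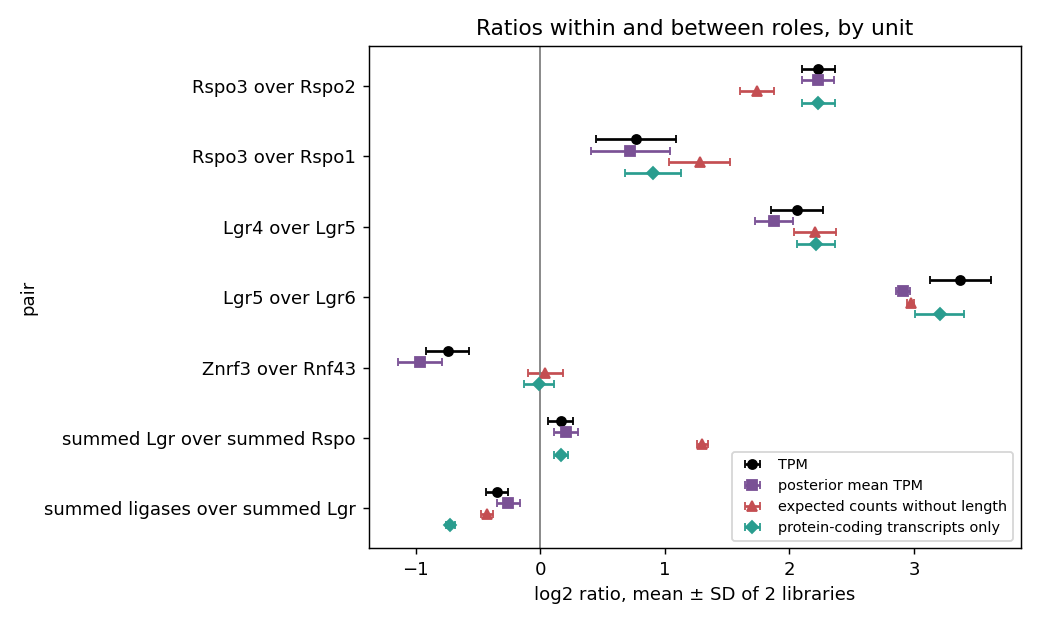
Log2 ratios of 7 fixed pairs, as mean and SD of 2 libraries, in TPM, posterior mean TPM, counts without length, and TPM of protein-coding transcripts. Znrf3 over Rnf43 lies at -0.74 in TPM and at 0.04 in counts and -0.0075 in coding transcripts, while Rspo3 over Rspo2, Lgr4 over Lgr5 and Lgr5 over Lgr6 lie at 1.74 or more in all 4 units.

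Znrf3-201 held 96.85% and 97.46% of Znrf3, and all 3 annotated Znrf3 transcripts are coding. Rnf43 has 9 annotated transcripts, with 38.4% and 41.3% of its TPM in the 5 noncoding ones. Rnf43-206, a retained-intron transcript, alone held 37.40% and 37.44%, on 317.39 and 341.15 counts. It holds 365, 913 and 373 bases that no coding transcript has, which lie before the first exon of Rnf43-209 (87662722 to 87663086), in the intron that follows that exon (87663223 to 87664135) and in a later intron (87729562 to 87729934). It ends there, after 6 exons, and lacks the later exons of Rnf43-209, which has 10 and ends at 87735538. By posterior means Rnf43-206 held 31.86% and 31.96% and was the largest single transcript, ahead of Rnf43-209 at 26.61% and 26.72%. By the deposited percent Rnf43-209 led with 40.70% and 43.46%.

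Coding Rnf43 RNA was assigned mainly to transcripts of the upstream starts. GENCODE gives these 3 transcripts its weakest support level (5), and gives the downstream Rnf43-201 and the noncoding Rnf43-206 level 1. Znrf3-201, the main Znrf3 transcript, also has level 5. Rnf43-209, Rnf43-202 and Rnf43-203 together held 46.4% ± 1.73 of the gene, or 4.55 and 4.77 TPM, and 37.0% by posterior means. The split among them was not steady: Rnf43-202 held 76.65 counts (6.92%) in replicate 1 and 10.96 (0.92%) in replicate 2. For Rnf43-203 the counts were 0 and 6.06. Rnf43-201, from the downstream start shown above, held 13.8% ± 0.368, or 1.34 and 1.43 TPM, which was 22.9% ± 0.222 of the coding TPM. It has 657 codons against 784 in Rnf43-209, a difference of 127. The motif of TCF and LEF factors, the DNA-binding partners of beta-catenin, was searched as CTTTG followed by AA, AT, TA or TT on both strands of the 300-base windows. It was in none of the 6 windows of Rspo1, Rspo4, Lgr4, Lgr6 and Rnf43 (5 genes, of which Rnf43 has the windows of Rnf43-209 and Rnf43-201). Of all 32851 windows, 16.9% held it. The absence says only that these letters are missing there. Rspo2, Rspo3, Lgr5 and Znrf3 had no window and were not searched.

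**Figure D3:**
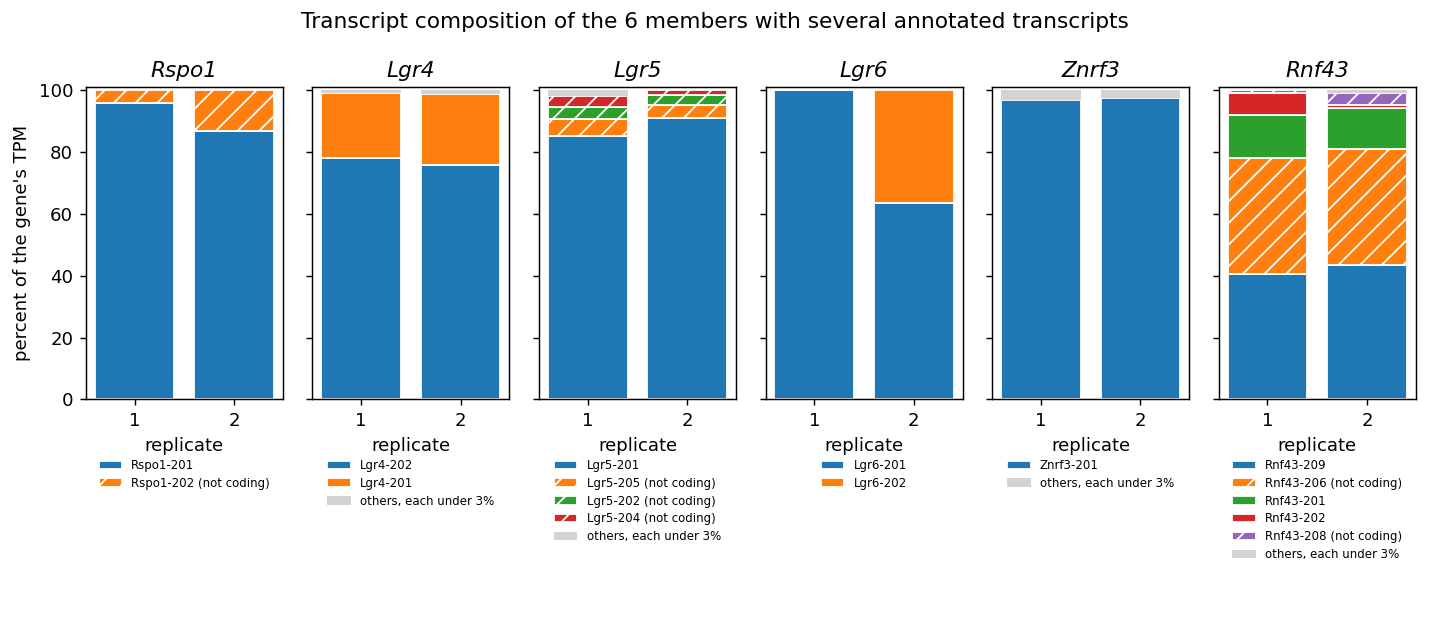
Percent of each gene's TPM held by its transcripts in replicate 1 and replicate 2, for the 6 genes with several annotated transcripts, with noncoding transcripts hatched and transcripts under 3% in both libraries in grey. Lgr4 is mostly Lgr4-202 (78.17% and 75.99%), and Rnf43 is divided between Rnf43-209 and the noncoding Rnf43-206 (37.40% and 37.44%).

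In all 6 genes with several transcripts, the transcript with the highest deposited percent was the same in both libraries. By posterior means, 5 of the 6 kept that transcript, and Rnf43 was the exception.

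Ordered by mean TPM, the genes ran Lgr4, Rspo3, Rnf43, Znrf3, Rspo1, Lgr5, Rspo2, Lgr6 and Rspo4, and 5 of the 8 steps between neighbours were apart. The order was taken from these same values, so the direction of the steps is not a result. The share of apart steps among other genes was not computed. Lgr4 stood 1.60-fold above Rspo3, Rnf43 1.67-fold above Znrf3, Lgr5 1.80-fold above Rspo2 and Rspo2 5.74-fold above Lgr6. The step from Lgr6 to Rspo4 was apart too, on 71 and 56 counts against 3 and 1. Rspo3 and Rnf43 changed places between libraries (log2 0.11 and -0.09), as did Znrf3 and Rspo1 (0.27 and -0.23). Rspo1 was above Lgr5 in both libraries, by log2 0.25 and 0.96, a spread too wide for the rule. The order changed with the unit. In counts without length Znrf3 came second after Lgr4, and Lgr5 stood above Rspo1 (log2 0.84 ± 0.39, not apart). By posterior means Rnf43 came before Rspo3 and Rspo1 before Znrf3, neither step apart. With coding transcripts the order was that of TPM, but Rspo3 was apart from Rnf43 (0.74 ± 0.09) and Rnf43 was not apart from Znrf3.

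Between roles, the call depended on the unit. Summed LGR over summed R-spondin TPM was 0.23 and 0.09 on the log2 scale (0.16 ± 0.10), which was not apart. With coding transcripts it was 0.17 ± 0.05, which was apart. In counts without length the same ratio was 1.30 ± 0.04 and apart, a unit in which longer transcripts weigh more. The ligases summed to less than the receptors, by log2 -0.41 and -0.29 (-0.35 ± 0.09), which was apart. With posterior mean TPM it was -0.26 ± 0.09 and not apart, and with coding transcripts alone it was -0.72 ± 0.03 and apart.

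The pools were then compared gene by gene. Of the 7 with a mean count of at least 100, 0 were apart by 2-fold with separate intervals, against 0.939% of 12885 protein-coding genes, and 0 were apart at 1.5-fold, against 3.04%. Shares that small call less than 1 gene in 7 on average, so the counts say nothing particular to these genes. Their median absolute log2 difference was 0.16, and over all genes tested it was 0.11. Rspo1 was the widest at 0.42 on the log2 scale, higher in replicate 2, which was 0.31 in counts with TMM factors and 0.28 in coding TPM. Lgr5 was next at -0.29, higher in replicate 1, with 505 to 598 and 406 to 489 as the Poisson intervals of its counts. Rspo2 differed by -0.23, higher in replicate 1, and Lgr4 differed by 0.00083.

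Relatives of these proteins were read beside them, from lists of families and pathway genes. The other LGR-type receptors, which serve glycoprotein hormones and relaxin, were not detected in any of 5 cases: Rxfp2 read 0.13 and 0.20 TPM, Tshr 0.19 and 0.13, Rxfp1 0.14 and 0.01 and Lhcgr 0.01 and 0, and Fshr had no count, where 0 counts allow up to 3 (a 1-sided 95% bound). Of the 9 relatives of Znrf3 and Rnf43, the membrane-bound RING ligases with a protease-associated domain, 5 were detected. Rnf128 at 125 ± 14.5 TPM, Rnf167 at 104 ± 1.28 and Rnf13 at 37.4 ± 2.65 were the highest. All 5 detected relatives read above Znrf3 and Rnf43 in both libraries.

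Partners of the complex were read next, against the same 62.0% detected among all protein-coding genes. Of 12 Frizzled and LRP genes, 9 were detected, at a median of 4.06 TPM over all 12, with Fzd1 at 8.89 ± 0.339, Lrp6 at 8.65 ± 2.46, Fzd2 at 8.23 ± 0.233, the epithelial receptor Fzd5 at 5.05 ± 0.226 and Lrp5 at 3.65 ± 0.099. Summed, these targets of the ligases read 52.2 and 57.3 TPM, beside 15.8 and 16.4 for the ligases. Of 19 Wnt ligands, 5 were detected, at a median of 0.305 TPM over the list, led by Wnt5a at 14.4 ± 1.03, Wnt5b at 3.75 ± 0.516 and Wnt9a at 3.65 ± 0.156. Their sum of 27.5 and 27.2 TPM was of the same order as that of the R-spondins, 17.8 and 18.7. All 7 listed genes of heparan sulfate proteoglycans, a class that R-spondins can also bind, were detected. Their median was 36.5 TPM, from Gpc3 at 436 ± 4.23 to Sdc3 at 12.6 ± 2.95.

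Inside the pathway, 15 of 16 intracellular genes were detected, at a median of 10.7 TPM over all 16, and Lef1 was the exception at 0.26 ± 0.0141. Of 13 secreted or membrane inhibitors, 7 were detected, and the median over all 13 was 1.84 TPM. Of 12 genes commonly read as beta-catenin targets, 10 were detected, and the median over all 12 was 8.86 TPM. Among these targets Axin2 read 2.73 and 2.41 TPM, below Lgr5, Znrf3 and Rnf43 in both libraries, which are often read as targets too. Over the 8 lists, 58 of 93 genes (62.4%) were detected, a share near that of all protein-coding genes.

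**Figure D4:**
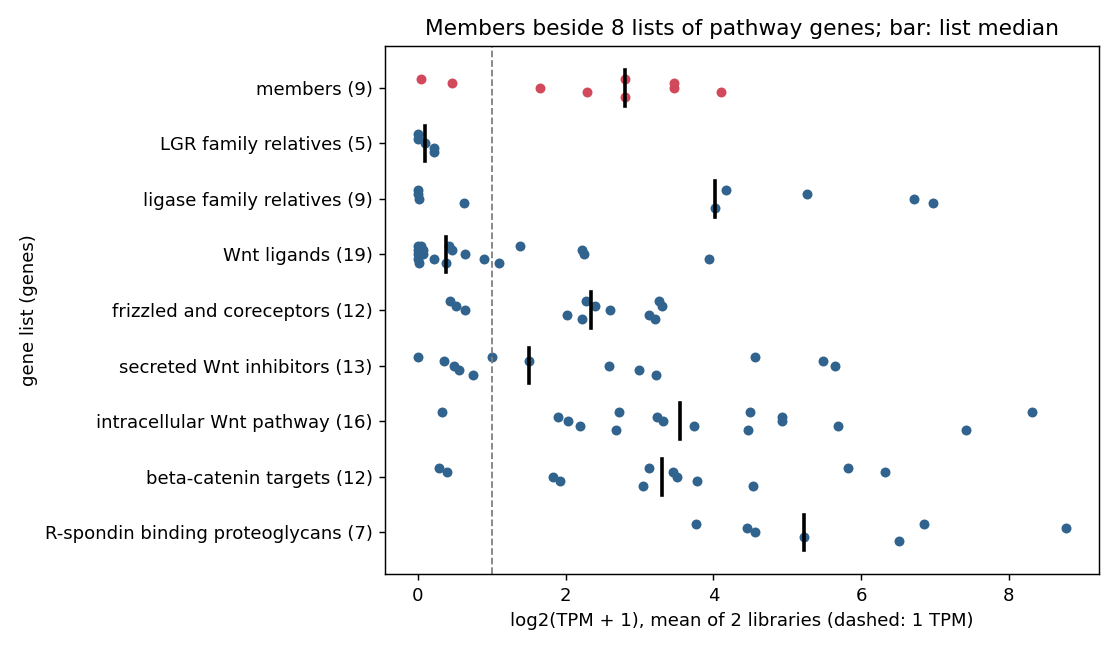
Mean level of each gene as log2(TPM + 1) for the 9 genes described here (red) and 8 lists of related genes (blue), with the list median as a bar and 1 TPM as a dashed line. The 9 genes have a median of 5.98 TPM, between the Frizzled and LRP list at 4.06 and the beta-catenin targets at 8.86.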

How the data were processed

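For either library the authors made tables of genes and of transcripts on mm10 with the GENCODE M4 annotation, per the text deposited beside them. Aligner, quantifier and strand handling: not given in the sources used here. Expected counts, as deposited, estimate the reads of each gene and divide shared reads. The deposited TPM and FPKM values correct for effective length (transcript length minus 99 bases) and depth. The deposited percent values give a transcript's share of its gene's TPM.

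Symbols, transcript names, types and coordinates were taken from GENCODE M21 (mm10) by identifier, which matched 42462 of 43346 gene IDs (98.0%). The 26248 features with numeric identifiers name no gene, held 0.000147% and 0.000157% of counts, and stayed out of every test. Members were summarised as mean and SD of 2 libraries. Exact Poisson intervals (95%) hold counting error alone: no molecular identifiers were counted, so reads may repeat a molecule.

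A log2 ratio between genes was called apart if its sign was shared by the libraries and its mean was over 3 SD from 0. No p-value is given, because a 2-sided exact sign-flip test of 2 libraries cannot go below 0.5. Between libraries, protein-coding genes with a mean count of at least 100 were called apart at 2-fold with separate Poisson intervals, after the median log2 ratio (-0.0151) was removed. That call was tried on simulated data whose changes were all larger than the 2-fold limit, so recovery at that limit was not tested. The 3 SD rule for ratios between genes was not simulated. Alternatives used posterior mean TPM, counts without length, other thresholds, TMM factors (edgeR 4.0.16) and DESeq2 1.42.0 size factors on expected counts rounded to whole numbers, and each library left out. Restriction to protein-coding transcripts was chosen after seeing the data. Python 3.11.15 and R 4.3.3 were used.

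The members, pairs, gene lists and rules were chosen with earlier results of these data known. Genes outside the members were taken from the 3 highest and the lowest of each pathway list, all genes of lists of 5 or fewer, Axin2, Lrp5, Lrp6 and Fzd5, the 2 highest of each marker list and all adrenal and gonad markers. Values are printed for part of them. The planned comparison of member proteins was not run, since no protein sequences were used here.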

Additional observations from a re-analysis of the deposited data

How the results depend on the processing

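No paired analysis was possible because all libraries belong to 1 group. Across the 7 ratios, 1 changed sign: Znrf3 over Rnf43 went from log2 -0.74 to 0.0403 in counts without length, and was no longer apart at -0.00754 with protein-coding transcripts only. Rspo3 over Rspo1 became apart in counts without length (1.28) and with coding transcripts (0.904), and so did summed LGR over summed R-spondins (1.30 and 0.166). Summed ligases over summed LGR was not apart with posterior mean TPM (-0.257). The other 3 ratios kept sign and call with posterior means, counts, coding transcripts and a pseudocount of 1 TPM. Of 9 genes, 6 to 8 were detected under other limits, and 0 were apart between libraries in each alternative. The count of pathway genes was 62 at 0.5 TPM. Leaving out a library returns the other's value and gives no call. Among single levels, Rnf43 went from 10.1 TPM to 6.05 with coding transcripts. By posterior means Lgr6 went from 0.375 to 0.58 TPM and Rspo4 from 0.03 to 0.045. Depth limits Rspo4, with 3 counts and 1, and the transcript split of Lgr6.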
